A study of Mus musculus with 18 samples.

Results

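The genes described here are the protein-coding neighbours of the Taar cluster that encode no odorant receptor. They are Eya4, Slc18b1, Vnn3 and Vnn1 on the centromeric side of the cluster, and Stx7, Moxd1, Ctgf and Enpp1 beyond its other end. They were taken by name and position on mouse chromosome 10 and not by their measured values, although earlier results of these data were known. They make up 8 of the 23359 gene symbols in the expression table. All 8 had a row. The question for these genes was whether the higher expression of Taar genes in reporter-positive cells stopped at the edges of the cluster.

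RNA-seq was performed on cells sorted by FACS from the main olfactory epithelium of mice labelled as C57BL/6. For its mouse lines, the study's reporting summary gives a mixed background. In Taar5-ires-Cre mice carrying lox-L10-GFP, at P11-14, 7 libraries came from reporter-positive cells (Taar5+) and 9 from reporter-negative cells (control). In Taar6-ires-Cre mice carrying lox-ZsGreen, at P16-17, there was 1 reporter-positive library (Taar6+) and 1 control. The ages are those of the labels, and the study's reporting summary instead gives an older age, in weeks, for both lines. Every animal therefore carried a Cre knock-in allele and a reporter, the controls included, and the reporter marks cells in which Taar5 or Taar6 has been transcribed at some time. Control cells are mostly neurons that express an odorant receptor (OR), and the number of animals behind a library is not given, so p-values measure the spread between these libraries, which may be technical.

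Trace amine-associated receptors are a small family of olfactory receptors for volatile amines, and an olfactory sensory neuron usually expresses a single receptor gene. Receptor choice depends on enhancers and on the chromatin state of the receptor gene clusters, so genes next to a cluster are a natural place to look for activity that runs past the receptors. The neighbours have unrelated functions. Stx7 encodes a syntaxin of the endosomal fusion machinery. Slc18b1 encodes a vesicular polyamine transporter. Enpp1 encodes an ectoenzyme that makes pyrophosphate from extracellular nucleotides. Moxd1 encodes a monooxygenase related to dopamine beta-hydroxylase. Vnn1 and Vnn3 encode pantetheinases, Ctgf (Ccn2 in newer annotation) a matricellular protein of connective tissue, and Eya4 a transcriptional coactivator with phosphatase activity.

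On the GRCm38 (mm10) build, the 15 Taar genes span chr10:23920356-24109534, which is 189179 bases. The nearest neighbours are Vnn1 (chr10:23894688-23905343, plus strand), 15.0 kb before the first Taar gene, and Stx7 (chr10:24149302-24190222, plus strand), 39.8 kb after the last. On the Vnn1 side follow Vnn3 (chr10:23851462-23869843, plus strand) at 50.5 kb, Slc18b1 (chr10:23796986-23827968, plus strand) at 92.4 kb and Eya4 (chr10:23102963-23350786, minus strand) at 569.6 kb. On the Stx7 side follow Moxd1 (chr10:24223517-24302790, plus strand) at 114.0 kb, Ctgf (chr10:24595442-24598683, plus strand) at 485.9 kb and Enpp1 (chr10:24637914-24712159, minus strand) at 528.4 kb. Between the outermost of these genes, Rps12 was the only other protein-coding gene of another kind in the annotation.

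The sequences just upstream of 6 neighbours are shown so that their base composition can be set beside their expression. Each is the 250 bases before the RefSeq transcript start (GRCm38.p6), 5′ to 3′ on the strand of the gene, with CG dinucleotides in capitals. Stx7 and Eya4 have 2 RefSeq starts each, and the window with more CG dinucleotides is printed for both. Vnn1 and Ctgf were not in the sequence table.
Slc18b1, chr10:23796736-23796985, plus strand: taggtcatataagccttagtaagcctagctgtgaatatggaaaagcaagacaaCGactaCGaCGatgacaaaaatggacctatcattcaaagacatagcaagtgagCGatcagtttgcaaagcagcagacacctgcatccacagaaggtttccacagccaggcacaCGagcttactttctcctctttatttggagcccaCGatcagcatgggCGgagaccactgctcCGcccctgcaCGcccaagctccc
Vnn3, chr10:23851212-23851461, plus strand: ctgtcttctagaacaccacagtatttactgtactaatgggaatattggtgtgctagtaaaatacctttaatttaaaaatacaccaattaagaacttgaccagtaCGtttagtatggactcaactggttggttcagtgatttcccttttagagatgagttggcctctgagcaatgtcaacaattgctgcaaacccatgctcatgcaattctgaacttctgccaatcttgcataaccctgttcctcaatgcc
Stx7, chr10:24149067-24149316, plus strand: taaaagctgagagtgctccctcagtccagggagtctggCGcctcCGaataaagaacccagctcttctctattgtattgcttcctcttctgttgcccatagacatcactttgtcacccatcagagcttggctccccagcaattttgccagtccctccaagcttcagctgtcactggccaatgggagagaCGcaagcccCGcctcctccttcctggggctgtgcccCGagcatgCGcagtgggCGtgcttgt
Moxd1, chr10:24223267-24223516, plus strand: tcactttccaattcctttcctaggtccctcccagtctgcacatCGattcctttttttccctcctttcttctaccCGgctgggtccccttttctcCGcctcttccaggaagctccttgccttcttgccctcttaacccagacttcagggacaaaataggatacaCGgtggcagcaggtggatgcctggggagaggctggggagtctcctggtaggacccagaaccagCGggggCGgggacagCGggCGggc
Enpp1, chr10:24712160-24712409, minus strand: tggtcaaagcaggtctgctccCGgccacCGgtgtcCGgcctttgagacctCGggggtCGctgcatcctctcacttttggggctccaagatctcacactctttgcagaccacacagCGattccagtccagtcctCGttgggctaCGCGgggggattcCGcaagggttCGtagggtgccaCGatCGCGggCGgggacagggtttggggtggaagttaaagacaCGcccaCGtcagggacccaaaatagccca
Eya4, chr10:23349944-23350193, minus strand: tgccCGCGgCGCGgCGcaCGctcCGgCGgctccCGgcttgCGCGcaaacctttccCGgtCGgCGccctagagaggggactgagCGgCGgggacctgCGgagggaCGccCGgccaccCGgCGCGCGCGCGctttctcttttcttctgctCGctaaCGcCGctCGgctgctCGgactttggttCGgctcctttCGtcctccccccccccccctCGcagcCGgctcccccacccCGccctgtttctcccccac

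The 6 windows differed widely in CG content. The Eya4 window held 35 CG dinucleotides, more than 97.0% of the 32851 windows of the table, whose median was 6. The Enpp1 window held 17, Slc18b1 9, Moxd1 8, Stx7 7 and Vnn3 1. The other windows held 25 for Eya4, more than 89.3% of all windows, and 4 for Stx7. The GC content was 74.0% for Eya4 and 39.2% for Vnn3, against a median of 52.4% over all windows. On either strand, the homeodomain-type motif TAATTA was in none of these 6 windows and in 4.84% of all windows, the Ebf-type motif CCCNNGGG in none and in 11.8%, and TATAAA in none and in 12.4%. CCAAT was found in Stx7 (1 match), Moxd1 (1 match) and Vnn3 (3 matches) and in 33.8% of all windows. No Taar window is set beside them, because 14 of 15 annotated Taar transcripts have a length that is a multiple of 3 bases, as a coding sequence without UTR has, and the start of such a model need not be the start of transcription.

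Expression was given as TPM (a share of all transcripts in a library, corrected for transcript length and scaled to 1000000), so levels can be compared between genes. Sequencing depth is unknown. The number of genes above 0 was 9784 to 17653 in the Taar5+ libraries and 5891 to 16888 in the controls, where control replicate 2 was lowest and the others had at least 11259. The summed level of all Taar genes was 1517 TPM in Taar5+ replicate 5 and 4542 to 7804 TPM in the other Taar5+ libraries, against 94.5 to 403 TPM in 8 controls. The Taar values of control replicate 2 repeat those of control replicate 1 and were left out. Summed OR expression was 5525 TPM in Taar5+ replicate 5 and 225 to 1999 TPM in the other Taar5+ libraries. Markers of mature olfactory sensory neurons were high in every library, at a summed 22506 to 30047 TPM in Taar5+ and 14127 to 50249 TPM in control cells. Taar5+ replicate 5 and control replicate 2 stand apart in these measures. Fold changes of neighbours that depend on them are given with and without them, except that Ctgf could not be fitted without Taar5+ replicate 5.

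None of the 5 tested neighbours passed the test for a change in Taar5+ cells, where only 0.168% of all tested genes did. Differences were tested in limma on log2(TPM + 1), for the 12502 genes that reached 1 TPM in 7 or more of the Taar5-line libraries (16 in all). Stx7, Moxd1, Slc18b1, Ctgf and Enpp1 passed this filter, and Vnn1, Vnn3 and Eya4 did not. At an adjusted p under 0.05 (Benjamini-Hochberg over all tested genes), 0 of these 5 genes were called. The share over all genes was 0.168% (21 of 12502), so a count of 0 among 5 genes says little about the neighbours. At an unadjusted p under 0.05, 1 of 5 passed (Moxd1, lower in Taar5+), against 7.05% of all genes. Moxd1 reached 1 TPM in 8 of 9 control and 2 of 7 Taar5+ libraries. It thus passed the filter through the controls, where it was higher, which limits what its p-value can show. The median log2 fold change of the 5 genes was −0.12 and that of all tested genes 0.02.

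The Taar genes give the scale against which these values are read, although the cells were sorted on a Taar gene, so that their direction is a check of the sort. In the same fit, 14 of the 15 Taar genes were tested, all 14 were higher in Taar5+ cells and 10 were called. Their median log2 fold change was 4.80. At the ends of the cluster, Taar2 was higher by 6.84 ± 0.79 (SE, adjusted p = 0.000253) and Taar9 by 4.75 ± 0.74 (SE, adjusted p = 0.00438) on the log2 scale. Taar1, the Taar gene nearest to Vnn1, was listed at 0 in all 18 libraries, so the first Taar gene with signal on that side was Taar2. The smallest change was that of Taar7b, at 1.75 ± 0.54 (adjusted p = 0.300). Taar7 and Taar8 genes share 29.5% to 72.5% of their 50-base words with another gene, so the division of reads among them is uncertain.

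**Figure D1:**
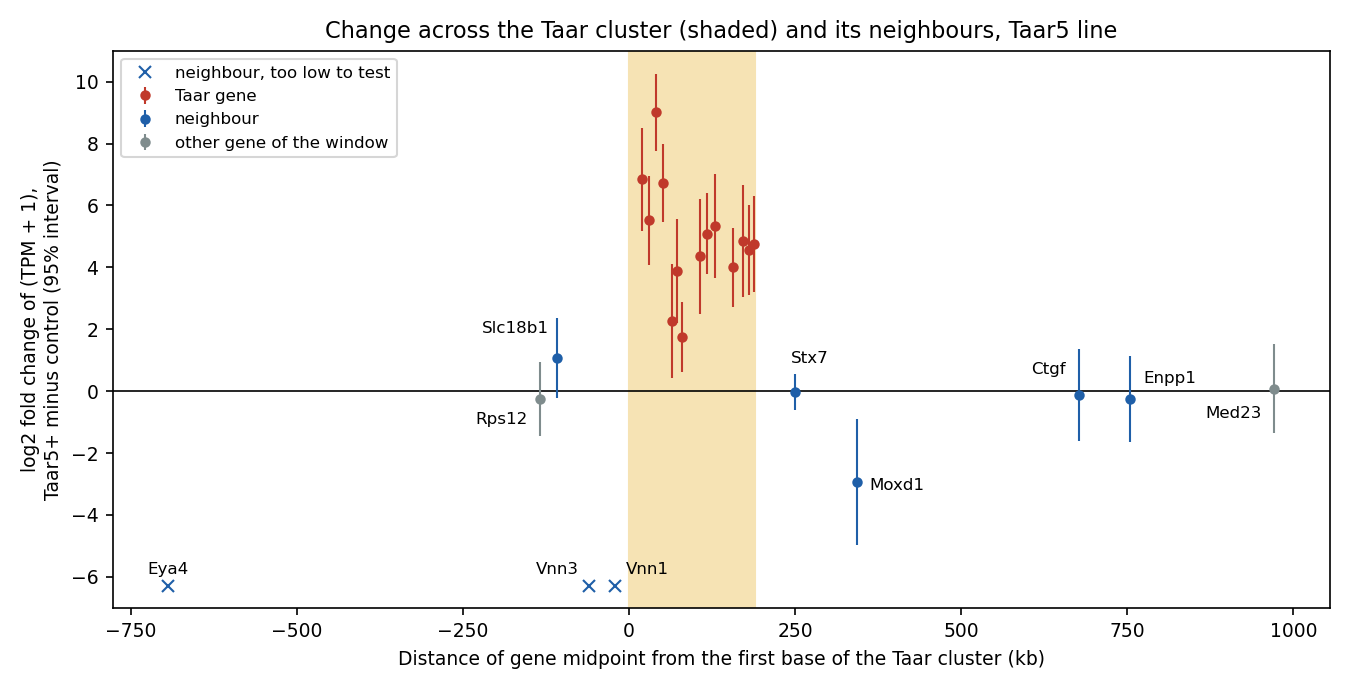
The log2 fold change of (TPM + 1) between Taar5+ and control libraries (points, with limma 95% intervals) is plotted against the distance in kb of each gene's midpoint from the first base of the Taar cluster, which is shaded. The 14 tested Taar genes lie between 1.75 and 9.01, the 5 tested neighbours between −2.93 and 1.08, and crosses at the bottom mark only the positions of the 3 neighbours that were too low to test.

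Stx7, the nearest neighbour beyond Taar9, was the most abundant of the 8 genes in every library. Its level ranged from 122 to 218 TPM (median 165) in the 7 Taar5+ libraries and from 54.0 to 276 TPM (median 197) in the 9 controls. The Taar5+ values all lay within the range of the controls, whose lowest value was that of control replicate 2. The difference was −0.04 on the log2 scale (SE 0.28, 95% interval −0.62 to 0.54, adjusted p = 0.992). On the scale of TPM + 1, this interval allows no more than a 1.46-fold increase of Stx7. Without control replicate 2 the difference was −0.24 (adjusted p = 0.717 in limma). The level of Stx7 was above that of 95.7% of all genes by the median of Taar5+ libraries and of 96.2% by the median of controls.

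Slc18b1, the nearest tested gene on the other side, had the highest log2 fold change among the neighbours. It ranged from 1.03 to 13.9 TPM (median 10.1) in Taar5+ and from 0 to 10.4 TPM (median 2.99) in controls, where it was listed at 0 in 2 libraries, replicates 2 and 7. The groups overlapped, and 4 of 7 Taar5+ values lay inside the control range. The log2 fold change was 1.08 (SE 0.62, 95% interval −0.22 to 2.38, adjusted p = 0.852), so that the data allow anything from a 0.861-fold to a 5.20-fold level in Taar5+ cells. The upper bound lies above the point estimate for Taar7b, which was 3.37-fold. The interval of Slc18b1 thus includes no change as well as an increase of that size.

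Enpp1, the outermost neighbour on the Stx7 side, was present at moderate levels, with similar medians in both groups. It ranged from 3.03 to 16.9 TPM (median 14.1) in Taar5+ and from 0 to 57.1 TPM (median 14.6) in controls, with the 0 in control replicate 2. Every Taar5+ value lay inside the control range when that library was counted. The other controls began at 10.5 TPM, above the 3.03 and 7.59 TPM of Taar5+ replicates 2 and 1. The log2 fold change was −0.26 (SE 0.67, 95% interval −1.65 to 1.13, adjusted p = 0.981). Without control replicate 2 it was −0.74 (adjusted p = 0.609 in limma).

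Ctgf was low in most libraries. It was listed at 0 in 3 of 7 Taar5+ and 3 of 9 control libraries, and its medians were 0.667 and 0.541 TPM. The highest Taar5+ value was 22.6 TPM in replicate 5 and the next was 1.68 TPM, while the highest control value was 12.3 TPM in replicate 1. The log2 fold change was −0.12 (SE 0.71, 95% interval −1.60 to 1.36, adjusted p = 0.990). Without control replicate 2 it was −0.28 (adjusted p = 0.948 in limma). Without Taar5+ replicate 5 Ctgf no longer passed the filter, so no fold change can be given. The summed level of 6 fibroblast and pericyte markers was 1084 TPM in Taar5+ replicate 5 and 15.6 to 173 TPM in the other Taar5+ libraries, but it was 3111 TPM in control replicate 2, where Ctgf was listed at 0. The part of such cells in the Ctgf values was not tested. The annotation places an antisense transcript (Gm15270) over 1667 bases of Ctgf, and 17.2% of the 50-base words of Ctgf occur in another gene, so its values are less certain than those of the other neighbours, for which that share was at most 0.96%.

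The 3 untested genes gave little or no signal. Vnn1, the protein-coding gene closest to the cluster, was listed at 0 in all 18 libraries, and Vnn3 in all but the Taar6+ library. Eya4 ranged from 0 to 9.51 TPM (median 0.0515) in Taar5+ and from 0 to 4.43 TPM (median 0) in controls, and reached 1 TPM in 2 of 7 and 2 of 9 libraries. Depth being unknown, a gene listed at 0 may still be present at a low level. All 7 Taar5+ libraries that listed Vnn1 at 0 gave at least 121 TPM for Taar2.

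**Figure D2:**
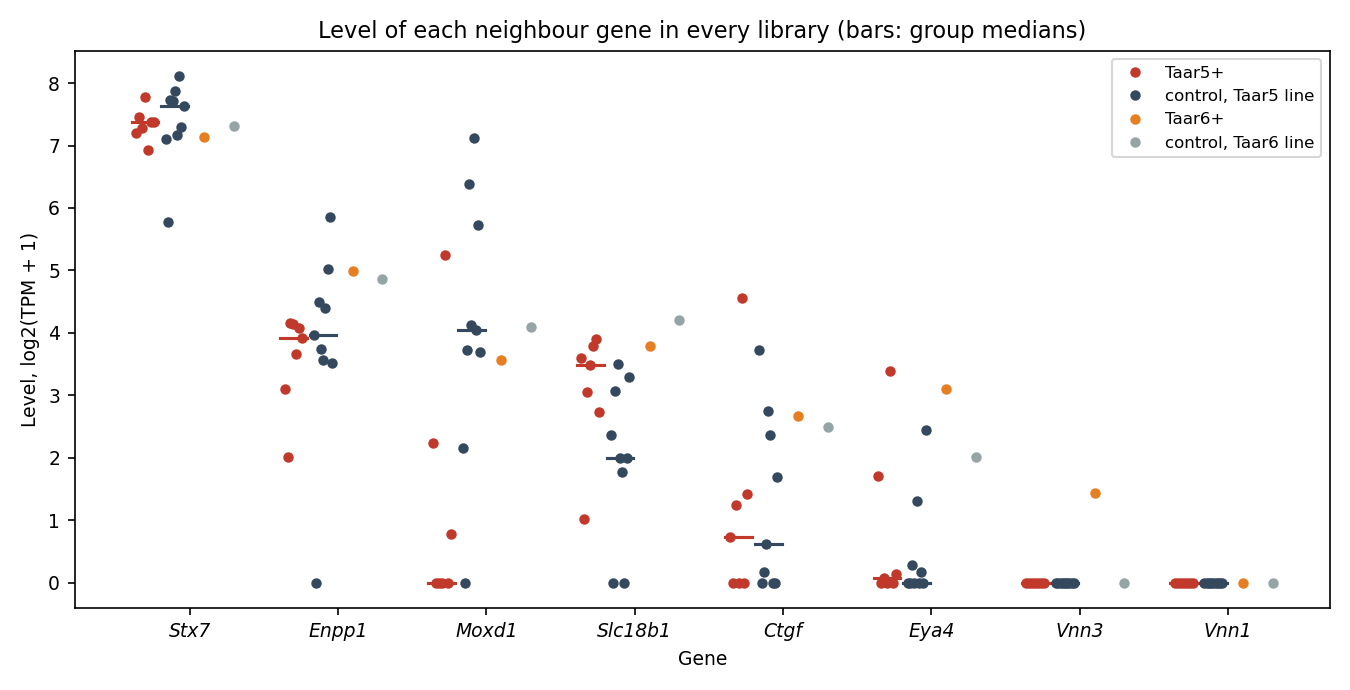
The level of each of the 8 neighbours in every library is plotted as log2(TPM + 1), with bars at the medians of the 7 Taar5+ and 9 control libraries of the Taar5 line. The Taar5+ and control points overlap for every gene, Stx7 is the highest gene within each library, and Vnn1 is at 0 throughout.

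Moxd1 was the neighbour whose level differed most, and in the direction opposite to that of the Taar genes. In Taar5+ it was listed at 0 in 4 of 7 libraries and had values of 0.705, 3.73 and 37.1 TPM in replicates 7, 1 and 5. In controls it was listed at 0 in replicate 2 and ranged from 3.44 to 138 TPM in the other 8 (median of all 9, 15.5 TPM). Without those 2 libraries the groups overlapped only at 3.44 and 3.73 TPM. The log2 fold change was −2.93 (SE 0.97, 95% interval −4.97 to −0.89), with an unadjusted p of 0.00725 in limma and an adjusted p of 0.334, so that Moxd1 was not called. The call depended on those libraries: without both, the log2 fold change was −4.12 (adjusted p = 0.00310, 2.83% of all genes called), and with limma weights for each library it was −3.11 (adjusted p = 0.00144, 10.6% of all genes called). All these p-values carry the limit that Moxd1 passed the filter through the controls, where it was higher.

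Genes of other cell types had nearly the same order across libraries as Moxd1. Over the 16 libraries of the Taar5 line, the tested genes with the highest Spearman correlation to Moxd1 were C1qb (rho 0.98), Krt7 (rho 0.95) and C1qa (rho 0.95). C1qa and C1qb encode complement subunits made by macrophages and microglia, and Krt7 encodes a keratin of simple epithelia. These correlations describe libraries that share their group and their cell makeup, and carry no test. C1qb was 0 to 77.2 TPM (median 0.708) in Taar5+ and 0 to 141 TPM (median 23.6) in controls, and like Moxd1 it was highest in Taar5+ replicate 5 and control replicate 6 and listed at 0 in control replicate 2.

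Among the marker lists of other cell types, some had lower levels in most Taar5+ libraries and others did not. For blood and immune cells, of 6 listed genes 5 were in the table (Ptprc, Cd74, Lyz2, Tyrobp and C1qa), all 5 had a negative log2 fold change (median −3.21), 4 had an unadjusted p under 0.05 in limma and 0 were called. Their summed level was 0 to 447 TPM (median 13.2) in Taar5+, with 447 TPM in replicate 5 and at most 141 TPM in the others, and 99.3 to 962 TPM (median 281) in controls. Ptprc, the pan-leukocyte marker, was listed at 0 in 5 of 7 Taar5+ and 2 of 9 control libraries. The 3 horizontal basal cell markers (Krt5, Krt14 and Trp63) had a median log2 fold change of −2.64, an unadjusted p under 0.05 for 3 of 3 and 0 called, with sums of 181 TPM in Taar5+ replicate 5, 0 to 17.5 TPM in the other Taar5+ libraries, and 60.1 to 123 TPM in all controls but replicate 2, where the sum was 0. The 3 microvillar cell markers summed to 175 TPM in Taar5+ replicate 5, 0.266 to 38.7 TPM in the others and 12.6 to 608 TPM in controls. Negative log2 fold changes were also found for the tested markers of progenitors (4 of 4, median −1.16) and ensheathing glia (2 of 2, median −1.18). The same held for fibroblasts and pericytes (5 of 5, median −0.70), and 0 genes of these 3 lists had an unadjusted p under 0.05 in limma. Of 2 tested endothelial markers 1 was negative (median −0.97). Lists for secretory and supporting cells did not go this way: of 4 sustentacular markers 1 had a negative log2 fold change (median 0.64) and of 4 Bowman gland markers 2 (median 0.06), with 0 called in limma and 0 at an unadjusted p under 0.05. The sustentacular sum was 8737 TPM in Taar5+ replicate 5 and 6325 TPM in control replicate 2, against at most 1833 TPM in the other Taar5+ and 783 TPM in the other control libraries. The Bowman gland sum was 6102 TPM and 1149 TPM in the same pair, against at most 182 TPM and 92.3 TPM in the others. The part of these cells in the Moxd1 difference was not tested, and in sorted pools fewer cells of a type cannot be told apart from less RNA per cell.

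**Figure D3:**
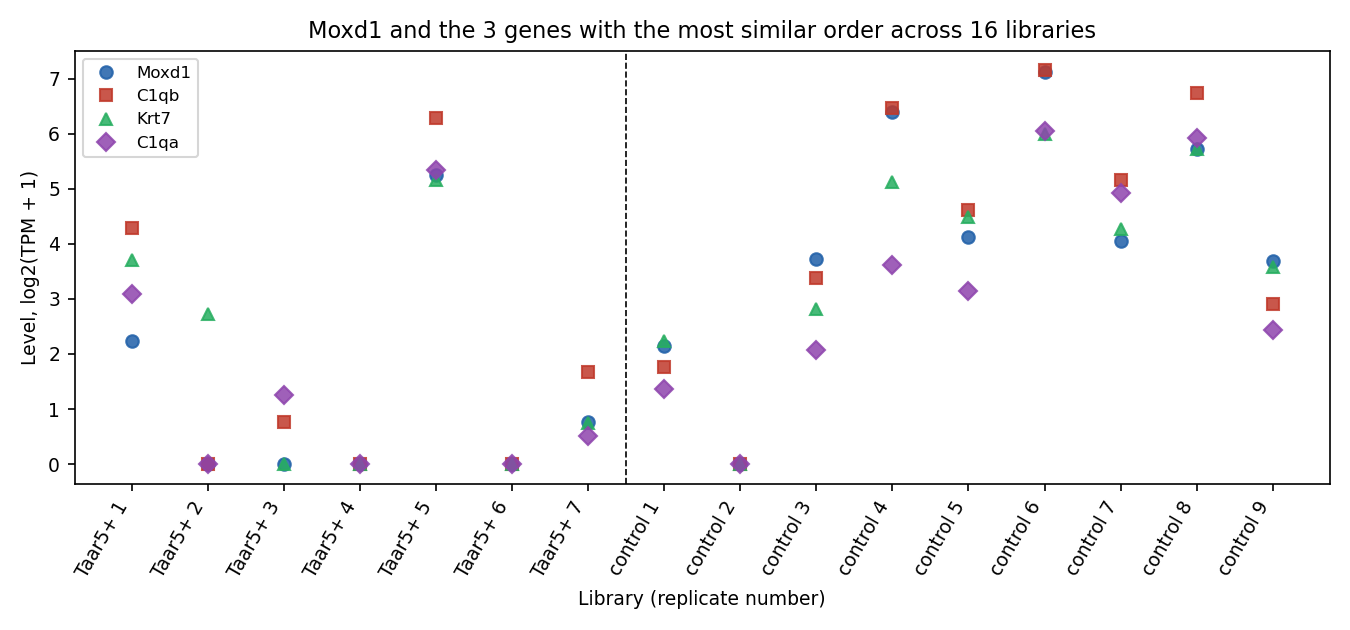
Levels of Moxd1, C1qb, Krt7 and C1qa are plotted as log2(TPM + 1) for each of the 7 Taar5+ and 9 control libraries, separated by a dashed line. All 4 genes are at 0 in control replicate 2 and in Taar5+ replicates 4 and 6, and all 4 have their highest Taar5+ value in replicate 5 and their highest control value in replicate 6.

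The other tested neighbours had different nearest genes. The 3 genes most like Stx7 were Rnf32 (rho 0.86), Casp6 (rho 0.84) and Nup88 (rho 0.84). Those most like Slc18b1 were Ints2 (rho 0.86), Fam83h (rho 0.84) and Taf1 (rho 0.83), and those most like Enpp1 were Prpf3 (rho 0.84), Dhx8 (rho 0.83) and Efcab2 (rho 0.80). Ctgf was most like Spr (rho 0.93), Klf15 (rho 0.91) and Lgals3 (rho 0.91), all of which had much higher values in Taar5+ replicate 5 (64.3, 14.3 and 35.0 TPM) than their Taar5+ medians of 6.13, 0.962 and 0.473 TPM. The neighbours were not much alike among themselves, with pairwise rho from −0.30 (Stx7 and Ctgf) to 0.39 (Moxd1 and Ctgf).

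The order of medians differed little between groups apart from Moxd1, but several adjacent genes could not be ordered. In controls the medians ran from Stx7 through Moxd1, Enpp1, Slc18b1 and Ctgf to Eya4, Vnn1 and Vnn3. Moxd1 and Enpp1 could not be ordered there, since each was the higher in 4 libraries and they tied at 0 in 1. Slc18b1 was above Ctgf in 4 controls, below it in 3 and equal in 2, and the same counts held for Ctgf against Eya4. In Taar5+ the order was Stx7, Enpp1, Slc18b1, Ctgf and Eya4, with Moxd1, Vnn1 and Vnn3 at a median of 0. By library, though, Moxd1 was above Eya4 in 3, below it in 1 and equal in 3. Enpp1 exceeded Slc18b1 in 5 of 7 Taar5+ and 8 of 9 control libraries, with a tie in the remaining control, and the ranges of the pair overlapped in both groups.

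The size of the Taar genes' change was also set against each neighbour within a library, as the log2 of summed Taar expression minus the log2 of the neighbour, both after adding 1 TPM. Because the cells were sorted on a Taar gene, the sort itself fixes most of this difference, so it is given as a description with no p-value and is no evidence for a boundary. Summed Taar expression gained on Stx7 by 4.92 (30.3-fold). The value was 4.90 ± 0.62 in Taar5+ and −0.02 ± 0.59 in control libraries (SD, n = 7 and 8), so that in control cells all Taar genes together were about as abundant as Stx7 alone. The groups did not overlap.

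The gain was 5.43 (43.0-fold) on Enpp1 and 8.13 (280-fold) on Moxd1, each without overlap of the groups. On Slc18b1 it was smallest of the 5, at 3.86 (14.5-fold), and on Ctgf it was 4.96 (31.2-fold). For Slc18b1 and Ctgf the groups overlapped, with Taar5+ replicate 5 lowest among Taar5+ and control replicate 7, in which both genes were listed at 0, highest among controls.

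**Figure D4:**
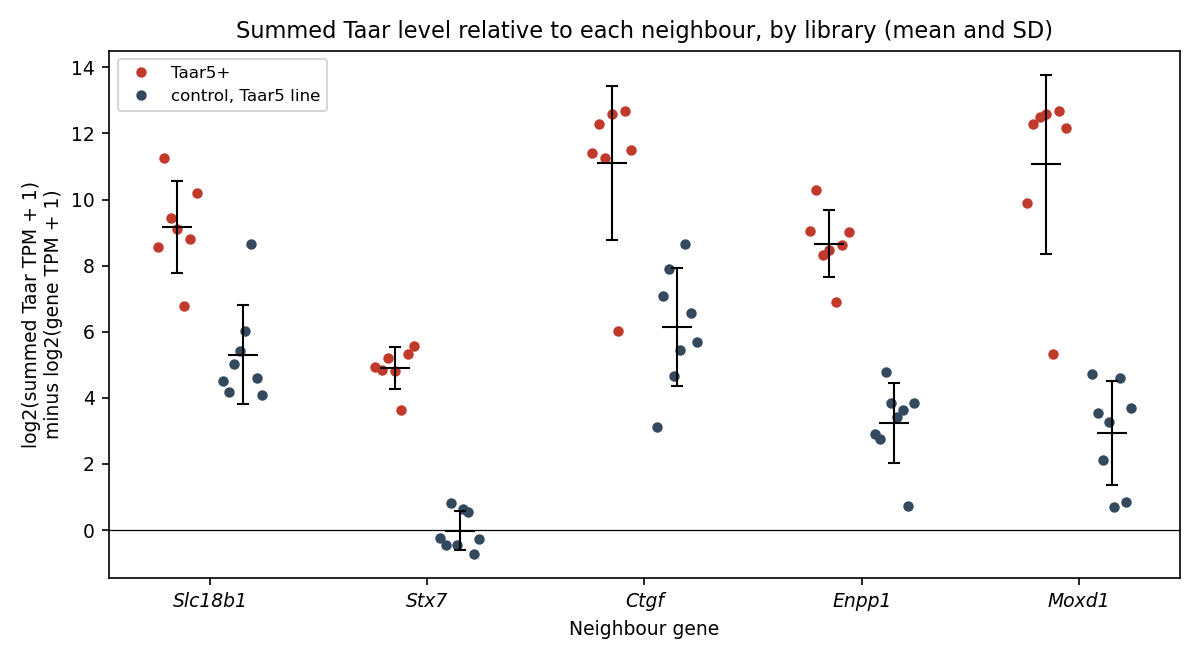
The log2 of summed Taar TPM + 1 minus the log2 of the TPM + 1 of each neighbour is plotted for 7 Taar5+ and 8 control libraries, with the mean and SD of each group. Taar5+ libraries lie above all controls for Stx7, Enpp1 and Moxd1, while 2 Taar5+ points for Slc18b1 and 1 for Ctgf lie below the highest control.

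Few other genes of the region could be tested. Within 1000 kb of the cluster the table held 6 further genes (Rps12, Snora33, Snord100, Enpp3, Med23 and Arg1), of which 2 were tested in limma, 0 were called and 0 had an unadjusted p under 0.05. With shares of 0.168% and 7.05% over all genes, counts of 0 among so few genes say little about the region. Rps12, a ribosomal protein gene 133.1 kb from the cluster and next to Slc18b1, was 0.431 to 15.6 TPM (median 3.50) in Taar5+ and 1.41 to 20.3 TPM (median 5.48) in controls. Its groups overlapped, at −0.24 on the log2 scale (SE 0.57, adjusted p = 0.979), with the limit that 25.1% of its 50-base words occur in another gene. Med23, a subunit of the Mediator complex 760.5 kb away, differed by 0.08 on that scale (SE 0.69, adjusted p = 0.993). Snora33, a small nucleolar RNA inside Rps12, was listed at 5288 TPM in Taar5+ replicate 1 and at 0 in every other library. Within 2000 kb, 6 of 21 further genes were tested in limma, 0 were called and 1 had an unadjusted p under 0.05, which can be read against the same shares.

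In the Taar6 line, 1 Taar6+ library was set beside 1 control, so no test can be made. Summed Taar expression was 9894 TPM in Taar6+ and 134 TPM in its control, and the 14 Taar genes with signal were higher by 4.32 to 7.64 in log2(TPM + 1). Stx7 was 140 TPM in Taar6+ and 158 TPM in its control. Enpp1 was 30.8 and 28.1 TPM, Slc18b1 12.8 and 17.5 TPM, Moxd1 10.9 and 16.1 TPM, and Ctgf 5.38 and 4.65 TPM, in the same order. These 5 genes differed by −0.52 to 0.18 in log2(TPM + 1), where the median of 15189 genes was −0.21.

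Eya4 and Vnn3 were higher in the Taar6+ library. Eya4 was 7.61 TPM against 3.03 TPM, a difference of 1.09, and Vnn3 was 1.71 TPM against 0, a difference of 1.44 in log2(TPM + 1). They were 2 of the 7 neighbours with at least 1 TPM in either library that were higher by at least 1, against 743 of 15189 genes or 4.89% overall. Both values rest on 1 library a side and on low levels, and Vnn1, which lies between Vnn3 and the cluster, was listed at 0 in both. The smallest Taar difference was 4.32, above that of every neighbour.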

How the data were processed

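The values analysed were TPM (shares of transcripts scaled to 1000000 per library), deposited by the authors as 1 table of 18 libraries. Per the study's methods, libraries were prepared with Smart-seq2, which adds no molecular identifiers and does not mark strand. The submitters' processing notes name Trimmomatic 0.36, HISAT2 2.1.0, Cufflinks 2.2.1 and DESeq2, with mm10 (GRCm38). How TPM were derived, the annotation, filters and the treatment of multi-mapping reads are not given in the sources used here. Since TPM keep no depth, no counting interval can be given.

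The 488 rows repeating an earlier symbol were summed with it. Control replicate 2 repeats the Taar values of control replicate 1 exactly (13 of 13 Taar genes above 0, and 0 other genes), so these were treated as missing and Taar comparisons used 8 controls. Groups were taken from the labels. Genes that reached 1 TPM in 7 or more of the 16 libraries entered limma 3.58.1 (R 4.3.3, lmFit, eBayes with trend), fitted to log2(TPM + 1). Benjamini-Hochberg adjusted p under 0.05 made a call. This pseudocount understates changes of low genes. Planned exact permutation tests (scipy 1.17.1) of Taar expression relative to a neighbour were run, but their p-values are not reported, because the sort fixes the Taar difference. The tests were tried on simulated data. Positions came from GENCODE M21 and upstream windows from RefSeq. Shared sequence is the share of 50-base words of a gene's transcripts that occur in another gene.

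The members and lists were chosen with earlier results of these data known. The genes named were all 8 neighbours, Taar1, Taar2, Taar9 and the Taar gene of smallest change, genes between the outermost neighbours, nearest the cluster or called, the 3 tested genes of highest Spearman rho to each tested neighbour, and markers that moved with a neighbour. Med23 and Snora33 were named after their values were seen. Alternatives covered the pseudocount, the filter, normalization, library weights, a replicate block and leaving out libraries.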

Additional observations from a re-analysis of the deposited data

Results flagged for a closer look

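Within groups of 4 to 10 libraries, single values that lay far from the rest by Dixon's criterion were looked for in 14 sets. These were the Taar5+ and control values of the 6 neighbours above 0 and of summed Taar expression. Such values were found in 5 sets, all in neighbours. The criterion's rate of 1 in 20 (0.7 sets) assumes normal values and independent sets. TPM are skewed and often 0, and the sets share libraries, so that rate cannot be applied here. In Taar5+ replicate 5, Moxd1 was 37.1 TPM and the next Taar5+ value 3.73 TPM. Eya4 was 9.51 TPM in the same library and the next value 2.25 TPM. Ctgf was 22.6 TPM there and the next value 1.68 TPM. Thus 3 of the 5 lay in Taar5+ replicate 5, the Taar5+ library with the lowest summed Taar and the highest summed OR expression. Among controls, Eya4 was 4.43 TPM in replicate 9 with 1.47 TPM next, and Ctgf was 12.3 TPM in replicate 1 with 5.70 TPM next.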

How the results depend on the processing

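The number of neighbours called in the Taar5 line stayed at 0 in 25 of 27 alternatives. It was 1 (Moxd1) with library weights and 1 without both control replicate 2 and Taar5+ replicate 5, where 1329 and 337 genes of all were called against 21. All genes called also changed by more than 1.5 times with quantile normalization (109), the replicate block (13), without control replicate 2 (148) and without Taar5+ replicate 5 (66). With TPM rescaled without receptor genes the count was 11, but that fit left out all receptor genes, including the 10 called Taar genes. Moxd1 alone gave an adjusted p of 0.0550 without control replicate 2 and 0.0787 without Taar5+ replicate 5, and its log2 fold change was −4.58 to −2.54 over all alternatives (adjusted p 0.00144 to 0.639). Slc18b1 stayed positive (0.38 to 1.79). Values near 0 changed sign: Stx7 was 0.0094 with quantile normalization and −0.24 to 0.056 when 1 library was left out. Ctgf was −0.28 to 0.069 over the 9 fits without 1 library in which it still passed the filter. The fit without Taar5+ replicate 5 was not among these. Enpp1 was 0.040 with a pseudocount of 0.1 and −0.75 to 0.00091 when 1 or both named libraries were left out. Apart from the receptor genes left out of the rescaled fit, the cause of these changes was not tested.

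The 5 gains of summed Taar expression on a neighbour stayed positive in all 22 alternatives each (3.18 to 10.1 over the 5). The counts of 0 other locus genes and of 2 neighbours in the Taar6 line did not change. Same-numbered libraries correlated at −0.0062 to 0.28, 5 of 7 pairs were above 0.1 and 4 of 7 libraries correlated best with their own number. The labels do not say that a number marks a shared sort, and not every pair exceeded 0.1, so a pairing is hinted at by the data but was not assumed. With a replicate block Moxd1 was −2.76 (adjusted p = 0.533), Slc18b1 1.26 (adjusted p = 0.539), the gain on Moxd1 was 7.70, and 0 neighbours were called.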
